A study of Mus musculus with 45 samples.

Results

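The comparison set the effect of an anti-p40 antibody on the distal colon of Il10-knockout mice against the effect of compound 13, a GPR4 antagonist, at 30 mg/kg. For each gene the difference was the log2 change from day 77 vehicle to anti-p40, minus the log2 change to 30 mg/kg from its own vehicle. The members were chosen by their labels: 29 of the 45 libraries of the series carried the 4 group labels that the difference needs. All 29 came from Il10-knockout mice. Of these, 5 libraries were from mice given anti-p40 (IL12/23) and 5 from mice given vehicle, both labelled day 77. A further 9 were from mice given compound 13 at 30 mg/kg and 10 from mice given vehicle. The labels of the latter cohort state no day, and those of the former state no antibody dose. The sources used here do not give strain, sex or age, or whether each library is a separate mouse, so the p-values measure the spread between these libraries. One library, labelled with 30 mg/kg in one place and 10 mg/kg in another, entered no group.

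Mice that lack interleukin 10 lose a brake on intestinal inflammation and develop colitis driven by gut bacteria. The p40 protein, encoded by Il12b, is shared by interleukins 12 and 23. Interleukin 12 directs T cells to make interferon gamma, which raises antigen presentation, and interleukin 23 sustains cells that make interleukins 17 and 22, which act on the epithelium. GPR4 is a receptor for extracellular protons, found mainly on endothelium.

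Total estimated counts were 24346096 to 32054840 for anti-p40, 23631544 to 36279743 for its vehicle, 24712533 to 31007332 for 30 mg/kg and 23215048 to 27824876 for the vehicle of the first cohort. Levels below are CPM, counts scaled to the size of the library, after scaling by the trimmed mean of M values. Il10 had 0 counts in 29 of 29 libraries. Of 12 listed distal colon markers, 11 were in the files, and all 11 had counts in every library. The counts of all 101 within-group pairs of libraries differed by more than sampling noise (chi-square per degree of freedom of at least 22.2). Several libraries stood apart from their groups. Library 3 of the first-cohort vehicle was the lowest of its group in 17 of 61 named genes by a gap test, and library 5 of 30 mg/kg was the lowest of its group in 3. In the day 77 cohort, vehicle library 3 was high in several inflammatory genes, and anti-p40 library 5 was the highest of its group in many of the genes described below. That last library also had a summed level of 11 pancreatic acinar genes of 9310 CPM, against at most 275 CPM in the other anti-p40 libraries and 140 CPM in day 77 vehicle. The first-cohort groups also held libraries with such levels, up to 10300 CPM at 30 mg/kg and 16500 CPM in vehicle. Library numbers only name the libraries within a group.

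Anti-p40 and 30 mg/kg differed in their effects in 251 of 17544 genes tested (1.43%), at an adjusted p under 0.05 in edgeR's quasi-likelihood test with Benjamini-Hochberg adjustment. In 191 genes the log2 effect of anti-p40 was lower than that of 30 mg/kg (1.09% of tested genes), and in 60 it was higher (0.342%). The difference was at least 2-fold in 112 of the lower and 51 of the higher genes, and 2920 genes had an unadjusted p under 0.05. Antigen presentation, nitric oxide and superoxide producing enzymes and T cell genes were among the lower ones. Gasdermin C genes, the carbonic anhydrase Car1 and the mucus protein Clca1 were among the higher ones.

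Among the 191 lower genes the median log2 effect was -1.08 for anti-p40 and 0.08 for 30 mg/kg, and the 95% interval of the 30 mg/kg effect held 0 in 174. For the 60 higher genes the medians were 1.6 and -0.09, and that interval held 0 in 53. Anti-p40 had the larger effect in size in 191 of 191 lower genes and 59 of 60 higher genes. Among all 17544 tested genes, the 30 mg/kg interval held 0 in 15923 and anti-p40 had the larger effect in 12362. The called genes were selected on the difference, so unequal effects among them follow in part from that selection. Within its own cohort, anti-p40 changed 1536 genes by the same test (8.76%), 513 higher (2.92%) and 1023 lower (5.83%). Compound 13 at 30 mg/kg changed 0 genes in edgeR (0%), with 1620 genes at an unadjusted p under 0.05, 2 genes called by DESeq2 and 0 by limma voom. These counts are no test of the difference, and the 251 genes are. The effects had unequal precision, with a median SE of 0.22 for anti-p40 and 0.16 for 30 mg/kg on the log2 scale. Over all 17544 genes the correlation of the 2 effects was 0.215 (Pearson) and 0.247 (Spearman). This is a description across genes, which are not independent, and the effects share no library.

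**Figure D1:**
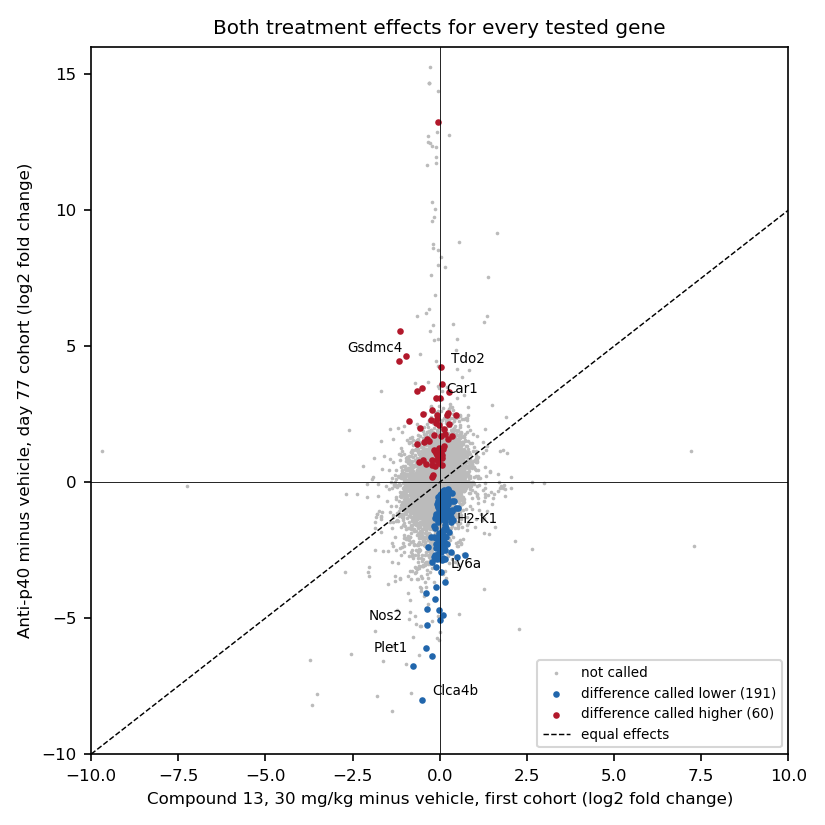
Each point is 1 of 17544 tested genes, with its log2 effect of 30 mg/kg against first-cohort vehicle on the horizontal axis and its log2 effect of anti-p40 against day 77 vehicle on the vertical axis. Coloured points are the 191 genes with a lower and the 60 genes with a higher anti-p40 effect, with median effects of -1.08 and 1.6 on the vertical axis and 0.08 and -0.09 on the horizontal one. The called gene near 13 on the vertical axis is the pseudogene Gm10163, at 0 in every day 77 vehicle library.

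The number of called genes depended on single libraries. It was 441 without the 2 first-cohort libraries that stood apart (127 higher, 314 lower) and 294 without those and the 2 day 77 libraries named above (74 higher, 220 lower). Left out singly, the libraries that moved the count by over 1.5 times were anti-p40 library 2 (103 genes), day 77 vehicle library 3 (115), anti-p40 library 1 (148), day 77 vehicle library 2 (156), day 77 vehicle library 4 (162), anti-p40 library 3 (166), 30 mg/kg library 5 (468) and first-cohort vehicle library 2 (515). Of the calls, 76.1% were lower, against 54.6% with scaling by total count only and 34.7% with limma on log2(TPM + 1). Those scalings moved the median log2 difference over all genes from 0.03 to 0.16 and 0.18. Cohort and treatment cannot be told apart in levels across cohorts, so each effect was taken within its own cohort. That removes only shifts in level between the cohorts. Each treatment was given in 1 cohort only, so treatment, cohort and day cannot be told apart in the difference of the effects either.

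MHC class I genes were lower in the difference as a group. All 17 tested members of the MHC class I and immunoproteasome list, which display peptides from inside the cell to CD8 T cells, had a lower anti-p40 effect than 30 mg/kg effect in edgeR, beside 1.09% of all tested genes. Their log2 differences lay between -2.59 and -0.93, with adjusted p from 0.00151 to 0.0472. The median was -1.44, beside 0.03 over all tested genes. The list had a median effect of -1.45 under anti-p40 and 0.06 under 30 mg/kg. The 95% intervals of the 30 mg/kg effects of its members all lay within -0.86 to 0.55. In 17 of 17 members every anti-p40 library was below every day 77 vehicle library, which was so for 7.52% of all tested genes. None of the 17 had non-overlapping groups at 30 mg/kg, nor did any tested gene (0% below and 0% above). Full separation is much rarer between 9 and 10 libraries than between 5 and 5, so the shares of the cohorts cannot be compared. The list was chosen with earlier results of these data known, so its count is a description. The number called was 17 without the 4 libraries that stood apart, and 12 to 17 when single libraries were left out.

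H2-K1, a classical class I heavy chain (ENSMUSG00000061232, chr17:33996017-34000347), was at 136, 159, 118, 156 and 200.3 CPM in the anti-p40 libraries and 463, 470.3, 635, 489.6 and 398 CPM in day 77 vehicle. In the first cohort it ranged from 274 to 531 CPM at 30 mg/kg (median 341) and from 138 to 417 CPM in vehicle (median 342). Every anti-p40 library was below every day 77 vehicle library, and the first-cohort groups overlapped over most of their range. Its log2 difference was -1.86 ± 0.27 (SE; edgeR adjusted p = 0.00151), made up of an anti-p40 effect of -1.67 and a 30 mg/kg effect of 0.18 (95% interval -0.14 to 0.51).

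H2-D1, the other classical heavy chain (ENSMUSG00000073411, chr17:35262730-35267499), was at 572, 623, 607, 695 and 903 CPM with anti-p40 and 1645, 1615, 2389, 1619 and 1518 CPM in day 77 vehicle. It lay between 1221 and 1994 CPM at 30 mg/kg and between 628 and 2063 CPM in first-cohort vehicle, where library 3 was the lowest. The log2 difference was -1.44 ± 0.25 (SE; edgeR adjusted p = 0.00592). H2-Q7, a nonclassical heavy chain from a family of near-identical genes between which reads may be split, fell from 13.7 ± 0.672 CPM (SD, n = 5) in day 77 vehicle to 3.02 ± 1.39 CPM (SD, n = 5), with a log2 difference of -2.27 ± 0.37 (SE; edgeR adjusted p = 0.00403).

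B2m, the light chain that every class I molecule needs (ENSMUSG00000060802), was at 266, 366, 354, 339 and 519 CPM with anti-p40 and 1082, 1061, 1646, 1043 and 1192 CPM in day 77 vehicle. The groups were far apart, while 30 mg/kg (736 to 1622 CPM, median 1114) and its vehicle (257 to 1476 CPM, median 1047) overlapped. Its log2 difference was -1.84 ± 0.34 (SE; edgeR adjusted p = 0.0063). Nlrc5, the transactivator of class I genes, had the most negative difference of the list, -2.59 ± 0.58 (SE; edgeR adjusted p = 0.0197). It was at 8.32, 6.87, 6.61, 7.56 and 19.2 CPM with anti-p40 and 64.4, 54, 125, 55.5 and 31.9 CPM in day 77 vehicle.

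The peptide supply moved with the heavy chains. Psmb8, a catalytic subunit of the immunoproteasome, had a log2 difference of -2.06 ± 0.38 (SE; edgeR adjusted p = 0.0065), and Psmb9, another subunit, of -2.23 ± 0.47 (SE; edgeR adjusted p = 0.0125). Tap1 and Tap2 form the transporter that brings peptides into the endoplasmic reticulum, and had differences of -1.88 ± 0.49 (SE; edgeR adjusted p = 0.0472) and -1.40 ± 0.31 (SE; edgeR adjusted p = 0.0192). Psmb9 and Tap1 overlap on opposite strands and the sources used here do not state the strand setting of the counting, so their reads may be shared. Tapbp, the chaperone that loads peptides, had the smallest difference of the 17, -0.93 ± 0.18 (SE; edgeR adjusted p = 0.00833).

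Promoters of 5 genes are shown because these genes differed together and hold a match to a sequence that interferon-activated factors are known to bind. They are called members of the MHC and interferon gamma lists with such a match in the 250 bases before the RefSeq start (GRCm38.p6). Not every called member of these lists was searched, so the 5 need not be all that hold a match. The gamma-activated site was searched as TTCNNNGAA, which reads the same on both strands, and the core of the interferon-stimulated response element as GAAA, any 2 bases and GAAA, on both strands. Each promoter reads 5′ to 3′ on the strand of its gene, with the match in capitals. B2m lies at chr2:122147437-122147686 on the plus strand and Psmb8 at chr17:34197945-34198194 on the plus strand. H2-T22 lies at chr17:36042743-36042992 and H2-T23 at chr17:36032702-36032951, both on the minus strand. Gbp2, an interferon-induced GTPase, lies at chr3:142620413-142620662 on the plus strand.
B2m: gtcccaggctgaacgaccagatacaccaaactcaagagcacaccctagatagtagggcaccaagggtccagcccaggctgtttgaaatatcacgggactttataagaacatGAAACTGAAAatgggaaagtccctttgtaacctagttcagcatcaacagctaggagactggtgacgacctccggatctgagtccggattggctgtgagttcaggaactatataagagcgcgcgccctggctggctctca
Psmb8: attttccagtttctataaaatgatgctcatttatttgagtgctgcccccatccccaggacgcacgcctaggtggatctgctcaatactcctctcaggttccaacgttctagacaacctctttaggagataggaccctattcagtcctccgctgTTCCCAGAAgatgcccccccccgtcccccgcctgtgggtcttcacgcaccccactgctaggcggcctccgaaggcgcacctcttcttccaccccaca
H2-T22: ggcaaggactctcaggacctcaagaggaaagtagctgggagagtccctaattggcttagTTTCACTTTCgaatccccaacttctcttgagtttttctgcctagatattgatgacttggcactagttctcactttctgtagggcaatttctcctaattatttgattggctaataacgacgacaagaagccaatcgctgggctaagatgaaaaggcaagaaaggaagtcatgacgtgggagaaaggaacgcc
H2-T23: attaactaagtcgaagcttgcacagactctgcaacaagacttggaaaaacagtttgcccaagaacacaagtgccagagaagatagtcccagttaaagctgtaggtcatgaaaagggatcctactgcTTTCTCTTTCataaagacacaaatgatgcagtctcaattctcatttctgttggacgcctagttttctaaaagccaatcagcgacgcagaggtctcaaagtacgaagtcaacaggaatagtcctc
Gbp2: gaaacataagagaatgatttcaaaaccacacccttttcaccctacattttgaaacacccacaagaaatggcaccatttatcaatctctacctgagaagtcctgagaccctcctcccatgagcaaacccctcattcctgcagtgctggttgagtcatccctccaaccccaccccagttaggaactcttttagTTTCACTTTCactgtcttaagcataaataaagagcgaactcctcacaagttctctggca

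The match began 139 bases before the start in B2m (GAAACTGAAA), 97 in Psmb8 (TTCCCAGAA), 191 in H2-T22 (TTTCACTTTC), 124 in H2-T23 (TTTCTCTTTC) and 59 in Gbp2 (TTTCACTTTC). Only Psmb8 held the gamma-activated site. H2-T22, a nonclassical class I gene, had a log2 difference of -1.18 ± 0.23 (SE; edgeR adjusted p = 0.0082). H2-T23, the class I gene that encodes Qa-1, had one of -1.22 ± 0.28 (SE; edgeR adjusted p = 0.0229). In windows of 300 bases (250 before to 50 after the start), the response core was in 4 of the 15 members of the class I list that have a promoter in the table (26.7%) and in 3.49% of all 27025 promoters. The gamma-activated site was in 1 of those 15 and in 8.47% of all promoters. A match is a description of letters and not a measured site. No share is given for the other lists, because fewer than 80% of their members have a promoter in the table.

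MHC class II genes, which display peptides from outside the cell to CD4 T cells, behaved alike in 6 of 11 tested members, and no member was called higher. The list's median difference was -1.90, with median effects of -1.82 for anti-p40 and 0.13 for 30 mg/kg. Over all tested genes 1.09% were called lower. In 7 of the 11 every anti-p40 library was below every day 77 vehicle library, beside 7.52% of all tested genes. Cd74, the invariant chain (ENSMUSG00000024610), was at 441, 504, 303, 414 and 1388 CPM with anti-p40 and 2736, 2367, 2660.0, 2353 and 2441 CPM in day 77 vehicle. Library 5 was the highest of the anti-p40 group and still below every vehicle library. The 30 mg/kg group was at 2151 to 3835 CPM (median 2967), beside 678 to 3504 CPM in vehicle (median 2777). The log2 difference was -2.18 ± 0.40 (SE; edgeR adjusted p = 0.00626).

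H2-Aa, the alpha chain of the I-A molecule (ENSMUSG00000036594, chr17:34282744-34287823), was at 138, 144, 92.6, 114 and 337 CPM with anti-p40 and 625.3, 556, 573, 594 and 568.2 CPM in day 77 vehicle. The groups did not overlap. The 30 mg/kg level was 508 to 1021 CPM (median 709), beside 179.7 to 883 CPM in vehicle (median 627). Its log2 difference was -2.09 ± 0.38 (SE; edgeR adjusted p = 0.00626). H2-DMa, part of the peptide exchange factor of class II molecules, had a difference of -2.11 ± 0.40 (SE; edgeR adjusted p = 0.00765). H2-Ab1 and H2-Eb1, the beta chains, had differences of -2.19 and -1.90 (edgeR adjusted p = 0.00833 and 0.00868).

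The class II members that did not pass included the transactivator Ciita, at -1.41 ± 0.48 (SE; edgeR adjusted p = 0.129), the protease gene Ctss at -0.57 and H2-DMb2 at -0.78. H2-Ob and H2-Oa, the chains of an inhibitor of peptide exchange that is typical of B cells, had positive values of 0.81 and 0.47. B cell genes showed a median difference of 0.63 with 0 of 13 called by edgeR, DESeq2 or limma voom and 0 at an unadjusted p under 0.05. Their median effects were -0.02 for anti-p40 and -0.79 for 30 mg/kg, the latter negative in 13 of 13. The count of 6 class II genes was 6 or 7 under every alternative run, with any single library left out and without the 4 libraries that stood apart. In bulk tissue, fewer cells of a type and less RNA per cell cannot be told apart.

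**Figure D2:**
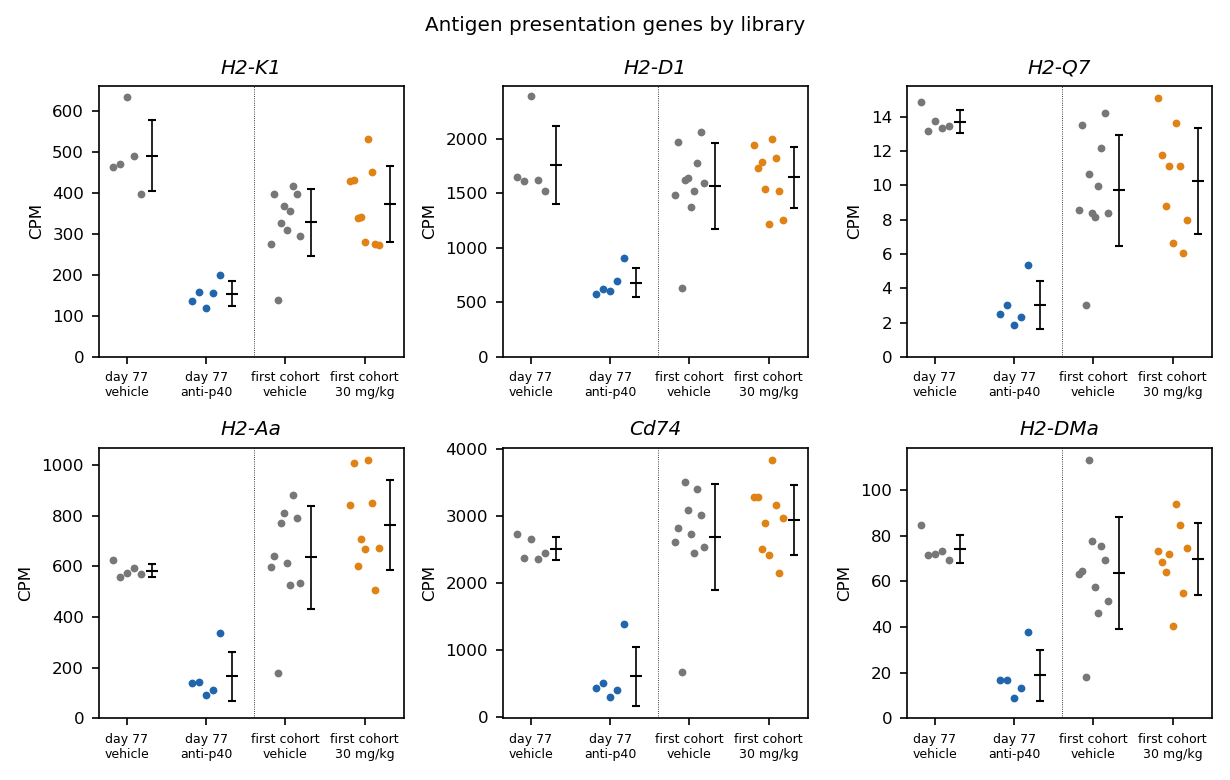
Points are the CPM of 6 antigen presentation genes in each of the 29 libraries by group, with bars for the mean and SD. The 5 anti-p40 libraries of H2-K1 (118 to 200.3 CPM) lie below the 5 day 77 vehicle libraries (398 to 635 CPM), while 30 mg/kg and its vehicle overlap in each panel.

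Summed over the class I list, the anti-p40 libraries held 2023, 2149, 1917, 2527 and 3171 CPM and the day 77 vehicle libraries 6335, 6063, 8132, 5923 and 5604 CPM. At 30 mg/kg the sum was 4302 to 7550 CPM (median 5943), beside 2122 to 7306 CPM in vehicle (median 5799). The anti-p40 libraries were all below their vehicle. Library 3 of the first-cohort vehicle, at 2122 CPM, lay within the anti-p40 range. Without that library the difference was called in 17 of the 17 class I genes and in 239 genes overall (49 higher, 190 lower).

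Interferon gamma response genes differed in 3 of 24 tested members, all lower, with a median difference of -1.59 and 20 members at an unadjusted p under 0.05. Over all genes these were 191 (1.09%, lower) and 2920 (either direction) of 17544. The median effects were -1.89 for anti-p40 and -0.32 for 30 mg/kg. Ido1, which degrades tryptophan, was at 1.71, 0.997, 2.46, 2.53 and 11.2 CPM with anti-p40 and 85.5, 62.5, 223, 54.5 and 53 CPM in day 77 vehicle. In the first cohort it ranged from 15.2 to 173 CPM at 30 mg/kg and from 0.967 to 305 CPM in vehicle. Its difference of -4.32 ± 0.98 (SE; edgeR adjusted p = 0.0218) was the most negative of the list. The guanylate-binding proteins Gbp8 and Gbp2, GTPases of cell-intrinsic defence, had differences of -2.18 ± 0.52 and -1.70 ± 0.43 (SE; edgeR adjusted p = 0.0293 and 0.044). Gbp8 overlaps Gbp4, so their reads may be shared.

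The chemokine gene Cxcl9, a classical target of interferon gamma, had a difference of -2.56 ± 1.02 (SE; edgeR adjusted p = 0.195), and the transcription factor gene Irf1 one of -0.81 ± 0.30 (SE; edgeR adjusted p = 0.161). The count of 3 interferon gamma genes was unstable. It was 0 without any 1 of anti-p40 libraries 1, 2 and 3 or day 77 vehicle library 3, 1 without anti-p40 library 4 or day 77 vehicle library 1, 5 without first-cohort vehicle library 2, 7 without anti-p40 library 5 and 11 without the 4 libraries that stood apart. Ido1 and Gbp8 passed in 25 and 23 of the 29 fits without 1 library, and Gbp2 in 10. Among 18 type I interferon genes, Zbp1, a sensor of viral nucleic acids, was called lower, beside 1.09% of all tested genes. Its difference was -1.90 ± 0.49 (SE, edgeR adjusted p = 0.0477), past the threshold in 7 of those 29 fits.

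The subunit genes of the antibody's targets were expressed near the limit of detection. Il12b, the p40 gene itself, was at 0.0711, 0.305, 0.091, 0.253 and 0.426 CPM with anti-p40 and 0.354, 0.237, 0.831, 1.33 and 0.698 CPM in day 77 vehicle, where a count of 0 in the shallowest library allows 0.129 CPM. It lay between 0 and 0.52 CPM at 30 mg/kg and between 0.0406 and 1.32 CPM in vehicle. The groups overlapped, and its difference was -0.52 ± 0.84 (SE; edgeR adjusted p = 0.791). Its effects were -1.58 under anti-p40 and -1.06 under 30 mg/kg (95% interval -2.08 to -0.03). Il12a and Il23a, the partner subunits, had differences of 0.44 and 0.35 (edgeR adjusted p = 0.783 and 0.835).

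Of the 18 genes listed for the interleukin 12 and 23 axis, 14 passed the filter on low counts and 0 were called in edgeR, DESeq2 or limma voom, with 1 at an unadjusted p under 0.05 in edgeR. Il12rb1, the receptor chain shared by both cytokines, was at 0.818, 0.526, 0.667, 0.868 and 1.01 CPM with anti-p40 and 2.37, 1.15, 2.26, 2.8 and 1.86 CPM in day 77 vehicle. Those groups did not overlap, yet the difference from 30 mg/kg was -0.97 ± 0.49 (SE; edgeR adjusted p = 0.314). Il12rb2 and Il23r, the specific chains, had differences of -0.65 ± 0.92 and -0.88 ± 1.19 (SE; edgeR adjusted p = 0.758 and 0.745).

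Ifng, the product of interleukin 12 signalling, was at 0.0711, 0, 0, 0.0362 and 0.426 CPM with anti-p40 and 0.601, 0.395, 3.72, 0.718 and 0.259 CPM in day 77 vehicle. Anti-p40 library 5 lay above vehicle libraries 2 and 5, and the difference was -2.16 ± 1.39 (SE; edgeR adjusted p = 0.456). Il17a, the product of interleukin 23-dependent cells, was below the filter. It had 1 count over the 5 anti-p40 libraries, 42 over their vehicle, 87 over 30 mg/kg and 225 over the first-cohort vehicle. The mean was 0.389 CPM at 30 mg/kg, with a highest library of 2.44 CPM, and 0.9 CPM in first-cohort vehicle, with 7.35 CPM. The totals of these groups thus rest mainly on 1 library each, and the groups differ in size. Il22 was at 0.142, 0, 0.0303, 0 and 0 CPM with anti-p40 and at 0.0395 to 0.198 CPM in day 77 vehicle, and these levels are too near the floor for a fold change.

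Epithelial genes known to respond to interleukins 22 and 17 had the most negative median difference of the 5 response lists, -2.46, with 5 of 20 tested members called, all lower. Their median effects were -2.75 for anti-p40 and -0.23 for 30 mg/kg. In 13 of the 20 every anti-p40 library was below every day 77 vehicle library. The shares over all tested genes were 1.09% called lower and 7.52% non-overlapping in this direction. Nos2, the inducible nitric oxide synthase, was at 8.79, 7.5, 9.28, 3.87 and 41.6 CPM with anti-p40 and 412, 388, 1132, 505 and 244 CPM in day 77 vehicle. The highest anti-p40 library was far below the lowest vehicle library. In the first cohort Nos2 spread from 24.6 to 678 CPM at 30 mg/kg (median 274) and from 6.99 to 1539.9 CPM in vehicle (median 326). Its log2 difference was -4.87 ± 1.05 (SE; edgeR adjusted p = 0.0156), past the threshold in 28 of the 29 fits without 1 library, and at adjusted p = 0.0504 without anti-p40 library 2.

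Duox2, a dual oxidase that makes hydrogen peroxide at the epithelial surface, was at 112, 126, 201, 166 and 382 CPM with anti-p40 and 695, 673, 1248, 808 and 593 CPM in day 77 vehicle. Levels at 30 mg/kg were 373 to 901 CPM, beside 98.8 to 1232 CPM in vehicle. The day 77 groups did not overlap and the first-cohort groups did. Duox2 had a difference of -1.999 ± 0.49 (SE; edgeR adjusted p = 0.0321), and its maturation factor Duoxa2 one of -2.74 ± 0.64 (SE; edgeR adjusted p = 0.0265). The metalloreductase gene Steap4 and the serum amyloid gene Saa2 followed at -2.71 ± 0.65 and -2.21 ± 0.54 (SE; edgeR adjusted p = 0.0304 and 0.0319).

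The antimicrobial members Reg3g and Lcn2 spread widely and were not called. Reg3g, a bactericidal lectin, was at 0.181 to 1.46 CPM with anti-p40 and 8.81, 8.42, 334, 4.27 and 16.7 CPM in day 77 vehicle. It ranged from 0.812 to 55.5 CPM at 30 mg/kg (median 14.4) and from 0.372 to 1890.1 CPM in vehicle (median 23.9). Its effects were -6.55 for anti-p40 and -3.72 for 30 mg/kg (95% interval -6.32 to -1.11), with a difference of -2.84 ± 2.08 (SE; edgeR adjusted p = 0.522). Lcn2, which withholds iron from bacteria, had a difference of -3.29 ± 0.91 (SE; edgeR adjusted p = 0.0579). The count of 5 fell to 0 without anti-p40 library 2, to 1 without anti-p40 library 1 or 3 or day 77 vehicle library 3, to 2 without day 77 vehicle library 4 or 30 mg/kg library 3 and to 3 without anti-p40 library 4. It was 9 without first-cohort vehicle library 2 and 4 without the 4 libraries that stood apart.

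Among 18 genes of epithelial defence and injury, 3 were lower and 3 higher, beside 1.09% and 0.342% of all tested genes. Clca4b, of the chloride channel accessory family, had the most negative log2 difference of the genes named by size, -7.48 ± 1.59 (SE; edgeR adjusted p = 0.0142). It was at 9.53, 2.6, 24.1, 2.89 and 8.75 CPM with anti-p40 and 1404, 2648, 4983, 2028 and 1184 CPM in day 77 vehicle, and its 30 mg/kg group (34.7 to 4613 CPM) and vehicle (4.02 to 7783 CPM) spread widely. Plet1, a surface protein of regenerating colonic epithelium, was at 6.62, 5.15, 6.7, 3.25 and 35.4 CPM with anti-p40 and 662 to 1814 CPM in day 77 vehicle. Its difference was -6.17 ± 1.34 (SE; edgeR adjusted p = 0.0167), and it missed the threshold without anti-p40 library 2 (adjusted p = 0.0546). Gsdmd, the executor of pyroptosis, had a smaller and more precise difference of -1.06 ± 0.21 (SE; edgeR adjusted p = 0.00938).

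Ly6a, which encodes Sca-1 and marks regenerating colonic epithelium, was called among the 16 regenerative genes, beside 1.09% of all tested genes called lower. It was at 77.6, 59.4, 102, 80.3 and 209.9 CPM with anti-p40 and 883, 1173, 1845, 692 and 688 CPM in day 77 vehicle. Its 30 mg/kg range was 372 to 1196 CPM, beside 88.1 to 1569 CPM in vehicle. The difference was -3.35 ± 0.57 (SE; edgeR adjusted p = 0.00514), and the other 15 members did not pass.

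Noxo1 had the smallest p-value of all tested genes. It is the organizer of the superoxide-producing NADPH oxidase of colonic epithelium (ENSMUSG00000019320, chr17:24696234-24700529) and was at 65.7, 49.4, 65.1, 69.5 and 69 CPM with anti-p40 and 131, 134, 158, 140.4 and 126 CPM in day 77 vehicle. At 30 mg/kg it was at 99.7 to 141 CPM (median 128), beside 69.4 to 145 CPM in vehicle (median 119). Its difference was -1.20 ± 0.17 (SE; edgeR adjusted p = 0.00146), and the 95% interval of its 30 mg/kg effect was -0.12 to 0.28. Muc1, a transmembrane mucin, fell from 36.5 ± 6.58 to 6.75 ± 1.23 CPM (SD, n = 5 each) with anti-p40, and its difference was -2.54 ± 0.38 (SE; edgeR adjusted p = 0.00155). Aldh1l1, a folate enzyme, and Pipox, which degrades pipecolic acid, had differences of -1.298 ± 0.23 and -3.84 ± 0.65 (SE; edgeR adjusted p = 0.00592 and 0.00514).

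Other large negative differences were found for Ltf, the iron-binding lactoferrin (-5.99 ± 1.40), Tnfrsf8, which encodes the lymphocyte receptor CD30 (-5.06 ± 1.03), and Slpi, a secreted protease inhibitor (-4.65 ± 1.09; SE; edgeR adjusted p = 0.0256, 0.00948 and 0.0265). Tnfrsf8 was at 0.243 to 0.968 CPM with anti-p40 and 14.4 to 37.6 CPM in day 77 vehicle. Among 22 genes of xenobiotic metabolism, with a median difference of 0.17, 1 was lower and 1 higher. Over all tested genes these shares were 1.09% and 0.342%. The carboxylesterase gene Ces2e was lower (-1.78 ± 0.33; edgeR adjusted p = 0.00626), and the higher one was Abcb1a. Ces2f, a neighbour of Ces2e in the same gene family, had a difference of -5.71 ± 1.10 (edgeR adjusted p = 0.0082). Reads may be split between Ces2e and Ces2f, which was not measured. Slpi missed the threshold without the 4 libraries that stood apart, and Slpi and Ltf each missed it without any 1 of anti-p40 libraries 1, 2 and 3 or day 77 vehicle library 3, and Slpi also without anti-p40 library 5.

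**Figure D3:**
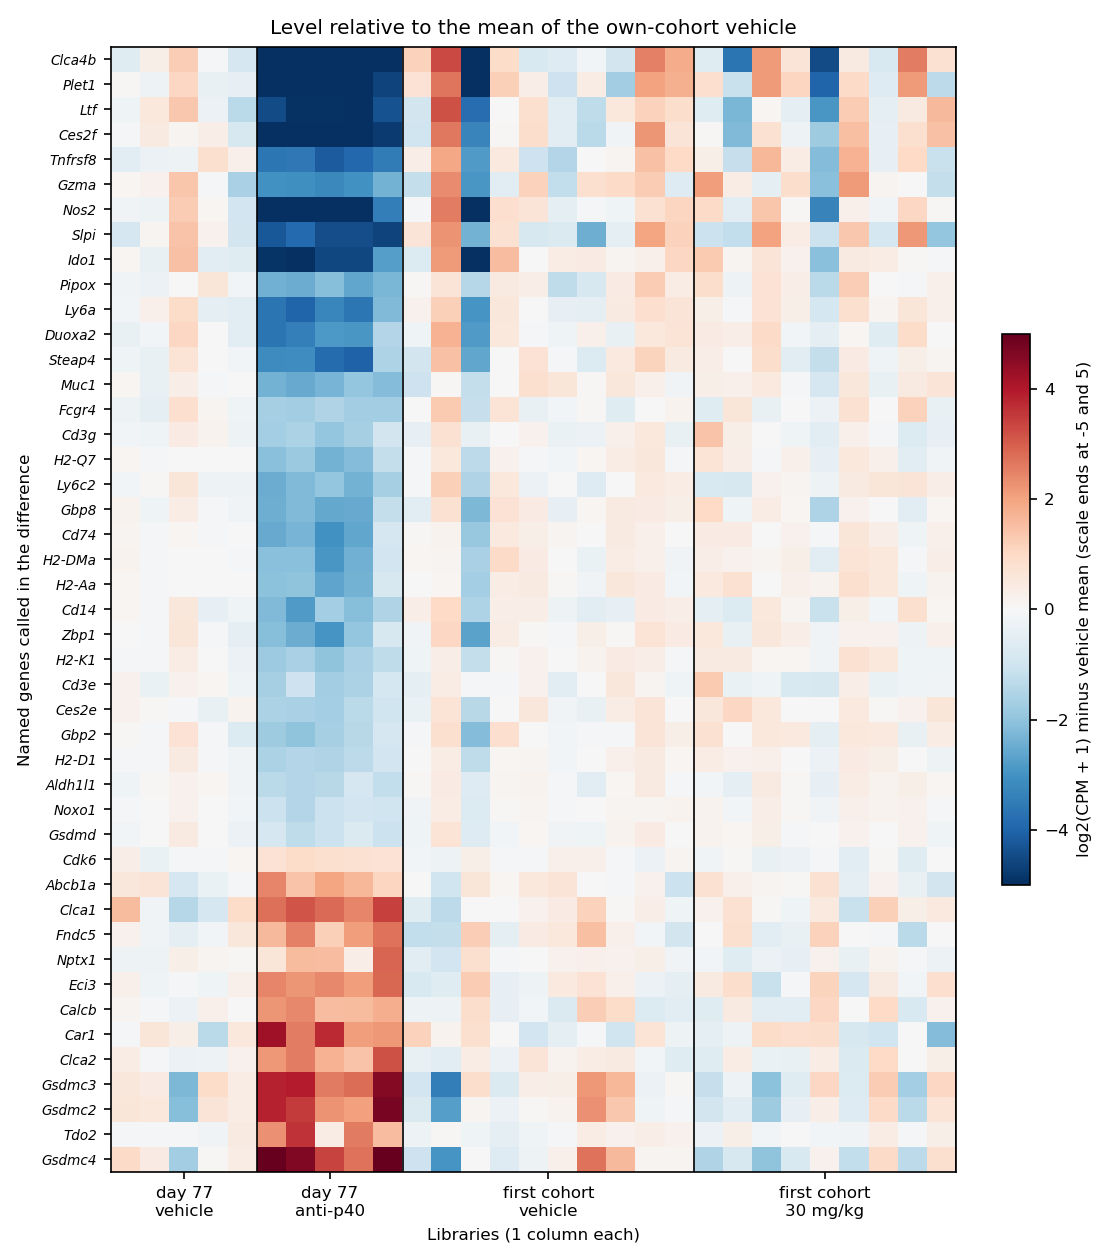
Rows are the 45 called genes named by rule and columns the 29 libraries. Colour is log2(CPM + 1) minus the mean of the vehicle libraries of the same cohort, on a scale cut at 5 in either direction. The 5 anti-p40 columns differ from their vehicle in nearly every row, and library 3 of the first-cohort vehicle is the column of its group that departs furthest in the antigen presentation rows.

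Some immune cell genes were called in the difference. Of 16 T cell genes, Cd3g and Cd3e were lower, with a list median of -1.03. Over all tested genes 1.09% were called lower. In 9 of the 16 every anti-p40 library was below every day 77 vehicle library, beside 7.52% of all tested genes. Cd3g, a chain of the T cell receptor complex, was at 0.889, 1.05, 0.607, 0.904 and 2.21 CPM with anti-p40 and 4.56, 4.27, 7.09, 5.81 and 4.14 CPM in day 77 vehicle. At 30 mg/kg it was at 2.68 to 14.8 CPM, beside 3.45 to 9.1 CPM in vehicle. The difference was -2.30 ± 0.49 (SE; edgeR adjusted p = 0.0129) for Cd3g and -1.83 ± 0.47 (SE; edgeR adjusted p = 0.0471) for Cd3e, the latter past the threshold in 11 of the 29 fits without 1 library. Foxp3, the factor of regulatory T cells, did not pass (-1.38 ± 0.77 SE; edgeR adjusted p = 0.371), and neither did the other 7 genes of that list, of which DESeq2 and limma voom also called 0. An unadjusted p under 0.05 was found for 2 of the 8.

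Gzma, a granzyme of cytotoxic lymphocytes, was the 1 called gene of 12 in its list, beside 1.09% of all tested genes called lower. Its difference was -4.99 ± 1.297 (SE, edgeR adjusted p = 0.0482), past the threshold in 7 of the 29 fits. Ly6c2, a marker of inflammatory monocytes, was at 5.94, 7.34, 9.1, 6.43 and 11.2 CPM with anti-p40 and 33.4, 39.1, 57.3, 30.8 and 31.1 CPM in day 77 vehicle. The first-cohort groups overlapped each other, at 7.83 to 23.3 CPM for 30 mg/kg and 4.43 to 34.5 CPM for vehicle. Its difference was -2.25 ± 0.45 (SE; edgeR adjusted p = 0.00888). Of 19 macrophage and monocyte genes, Cd14, the co-receptor for lipopolysaccharide (-1.99 ± 0.44), and Fcgr4, an activating antibody receptor (-2.38 ± 0.55), were the others called (SE; edgeR adjusted p = 0.0176 and 0.0213). Both missed the threshold without anti-p40 library 2 or day 77 vehicle library 3. In 14 of the 19 every anti-p40 library was below every day 77 vehicle library, beside 7.52% of all tested genes.

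Neutrophil genes had a median difference of -2.74 over 13 tested members and 0 called by edgeR or limma voom, with 7 at an unadjusted p under 0.05 in edgeR and 2 called by DESeq2. S100a8, an abundant neutrophil protein, was at 0.0554 to 0.533 CPM with anti-p40 and 18.5, 60.4, 392, 80.1 and 12.6 CPM in day 77 vehicle. In the first cohort it ran from 0 to 152 CPM at 30 mg/kg and from 0.149 to 522 CPM in vehicle. The anti-p40 effect of -8.40 passed its own test (edgeR adjusted p = 0.0253), and the difference of -7.04 ± 2.45 (SE) did not (edgeR adjusted p = 0.139). Plasma cell genes had a median difference of -0.70, with 10 of 13 negative, and a summed level of 2254 to 3898 CPM with anti-p40 and 5519 to 8690 CPM in day 77 vehicle. Their 1 call in the difference went the other way, beside 0.342% of all tested genes called higher. The immunoglobulin segment Ighg1 was higher (3.16 ± 0.74 SE, edgeR adjusted p = 0.0256). It was at 21.7, 97.6, 8.28, 31.7 and 22.6 CPM with anti-p40 and 3.29 to 12.8 CPM in day 77 vehicle.

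Genes with a higher anti-p40 effect were led by the gasdermin C cluster of chromosome 15, whose products form membrane pores in colonic epithelium. Gsdmc4 (ENSMUSG00000055748) was at 1034, 807, 343, 215 and 2216 CPM with anti-p40 and 61.9, 42.1, 8.83, 32.8 and 40.9 CPM in day 77 vehicle. Every anti-p40 library was above every vehicle library, and library 5 was the highest. The 30 mg/kg group ran from 22.2 to 182 CPM and its vehicle from 11.1 to 608 CPM. The difference was 5.60 ± 1.04 (SE; edgeR adjusted p = 0.00762), from effects of 4.63 and -0.97 (95% interval of the latter -2.14 to 0.19). Gsdmc2 and Gsdmc3 had differences of 3.996 ± 0.87 and 3.96 ± 0.96 (SE; edgeR adjusted p = 0.0158 and 0.0335), and both missed the threshold without the 4 libraries that stood apart. Gsdmc2 passed in 29 and Gsdmc3 in 20 of the 29 fits without 1 library, Gsdmc3 missing without any 1 of the 5 day 77 vehicle libraries, anti-p40 libraries 1, 2 and 5 or 30 mg/kg library 6. The 3 genes are near-identical, and reads may be split between them.

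Car1, a carbonic anhydrase of surface colonocytes, was at 1194, 370.5, 841, 263 and 284 CPM with anti-p40 and 59.6, 95.2, 76, 23.5 and 88.5 CPM in day 77 vehicle. It was at 43.3 to 378 CPM at 30 mg/kg (median 164), beside 98 to 440.4 CPM in vehicle (median 191). The day 77 vehicle libraries were thus below every library of the first-cohort vehicle, and the anti-p40 libraries ran from within the upper part of that range to above it. Its difference was 3.22 ± 0.66 (SE, edgeR adjusted p = 0.0108). Car1 was the 1 called gene of 18 colonocyte transport genes, beside 0.342% of all tested genes called higher. Slc26a3, the chloride and bicarbonate exchanger of the same cells, did not pass (0.81 ± 0.34 SE; edgeR adjusted p = 0.225).

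Clca1, a protease of goblet cell mucus, was at 8888, 11670.0, 9267, 7204 and 14100.0 CPM with anti-p40 and 3919, 1150.0, 482, 732 and 2453 CPM in day 77 vehicle. First-cohort levels were 2899 to 14258 CPM at 30 mg/kg and 2542 to 14091 CPM in vehicle, with medians of 7745 and 6353 CPM, above every day 77 vehicle library. The difference was 2.32 ± 0.55 (SE; edgeR adjusted p = 0.0278), and it missed the threshold without the 4 libraries that stood apart. Clca1 was the 1 called gene of 14 goblet cell genes, beside 0.342% of all tested genes called higher. Muc2, the main gel-forming mucin, had a difference of 0.24 ± 0.31 (SE, edgeR adjusted p = 0.734). Clca2, of the same family, had one of 3.54 ± 0.71 (SE; edgeR adjusted p = 0.00872).

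Cdk6, a kinase of the G1 phase of the cell cycle, had little spread within groups, at 30.8, 35.4, 32.5, 31.4 and 30.2 CPM with anti-p40 and 23.1, 14, 17.4, 17.6 and 19.5 CPM in day 77 vehicle. At 30 mg/kg it was at 14.2 to 23 CPM, beside 17.8 to 27.3 CPM in vehicle. Its difference of 1.04 ± 0.18 (SE; edgeR adjusted p = 0.00514) was made up of an effect of 0.81 under anti-p40 and one of -0.23 under 30 mg/kg (95% interval -0.44 to -0.02). Abcb1a, the drug efflux pump P-glycoprotein, had a difference of 1.66 ± 0.42 (SE; edgeR adjusted p = 0.0448, past the threshold in 11 of the 29 fits without 1 library). Tdo2, a tryptophan-degrading enzyme, and Eci3, of fatty acid oxidation, had differences of 4.20 ± 0.72 and 3.05 ± 0.66 (SE; edgeR adjusted p = 0.00514 and 0.0158). Nptx1 (a neuronal pentraxin, 3.003), Calcb (a calcitonin gene-related peptide, 3.09) and Fndc5 (the precursor of irisin, 2.86) also passed. They did so in 26, 9 and 10 of the 29 fits without 1 library, and all 3 missed the threshold without the 4 libraries that stood apart.

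**Figure D4:**
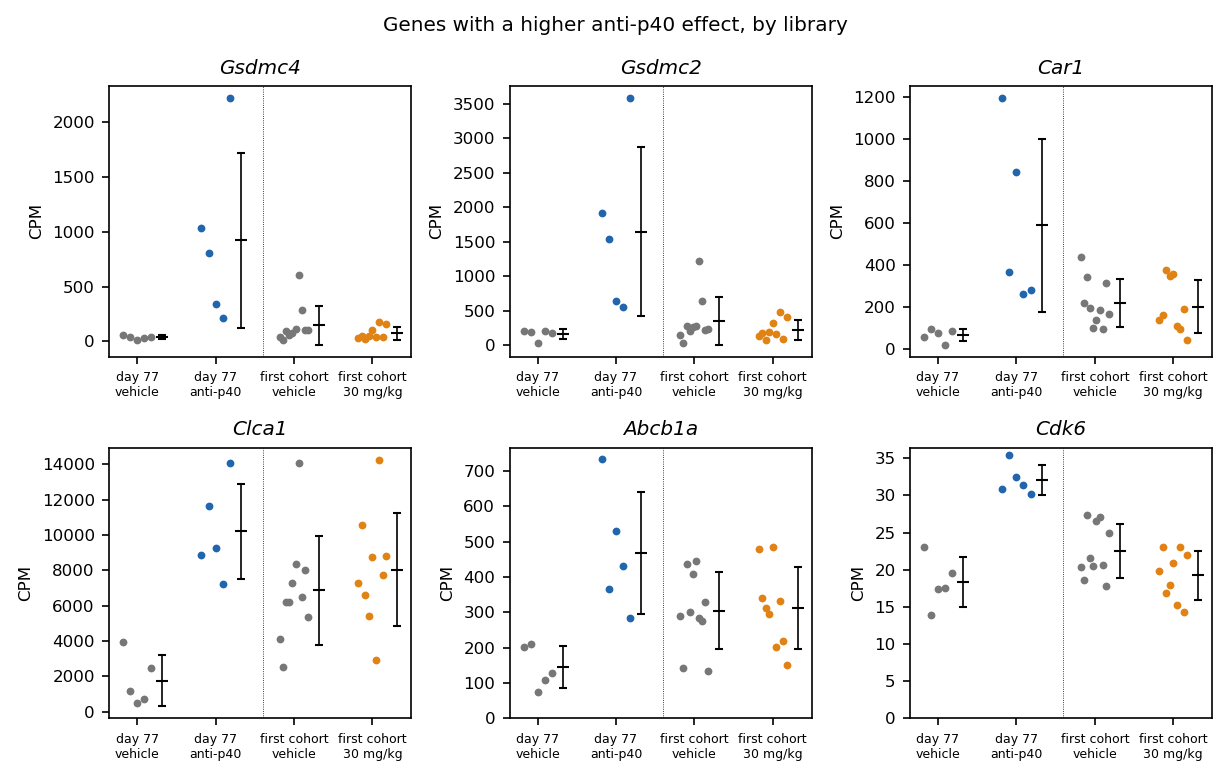
Points are the CPM of 6 genes with a higher anti-p40 effect in each of the 29 libraries by group, with bars for the mean and SD. Car1 in day 77 vehicle (23.5 to 95.2 CPM) lies below the first-cohort vehicle (98 to 440.4 CPM) as well as below the anti-p40 libraries (263 to 1194 CPM).

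The vehicle groups of the cohorts were not at the same level in the higher genes. Of the 60 higher genes, 8 had a higher mean in day 77 vehicle than in first-cohort vehicle (13.3%), beside 48.9% of all tested genes, with a median log2 gap of -0.69. The 191 lower genes had 127 such genes (66.5%) and a median gap of 0.09. Both vehicle groups enter the difference, so calling a gene higher favours a low day 77 vehicle and calling it lower favours the reverse. These shares and gaps are therefore partly built in by the selection. Cohort, day and vehicle cannot be told apart in this gap, and its part in the difference was not tested.

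Muscle and nerve markers had higher group means with anti-p40 than in day 77 vehicle, and 0 of them passed edgeR's test of the anti-p40 effect (unadjusted p under 0.05 for 1 of 13 muscle and 1 of 14 nerve genes). That test estimates spread over all 29 libraries. In the authors' deposited table, from DESeq2, adjusted p for this effect ran from 1.33e-06 (Cnn1) to 0.0264 (Synpo2) over the 13 muscle genes. Among nerve genes the DESeq2 adjusted p was 5.7e-06 for Gfap and 0.189 for Ret. The summed level of 13 smooth muscle genes was 5200 to 12600 CPM with anti-p40, 1941 to 5204 CPM in day 77 vehicle, 1220 to 8950 CPM at 30 mg/kg and 569 to 10400 CPM in vehicle. That of 14 neuronal and glial genes was 111 to 186 CPM with anti-p40 and 42.8 to 81.1 CPM in day 77 vehicle. The muscle sums of the day 77 groups touched, at 5200 and 5204 CPM. In 3 of the 13 muscle genes and 11 of the 14 nerve genes every anti-p40 library was above every day 77 vehicle library, beside 6.57% of all tested genes. In the difference, 0 members of either list were called by edgeR, DESeq2 or limma voom and 0 had an unadjusted p under 0.05, with medians of 0.75 and 0.84. T cell markers summed to 33.9 to 64.6 CPM with anti-p40 and 76.7 to 126 CPM in day 77 vehicle. The part of tissue composition in the differences above was not tested.

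**Figure D5:**
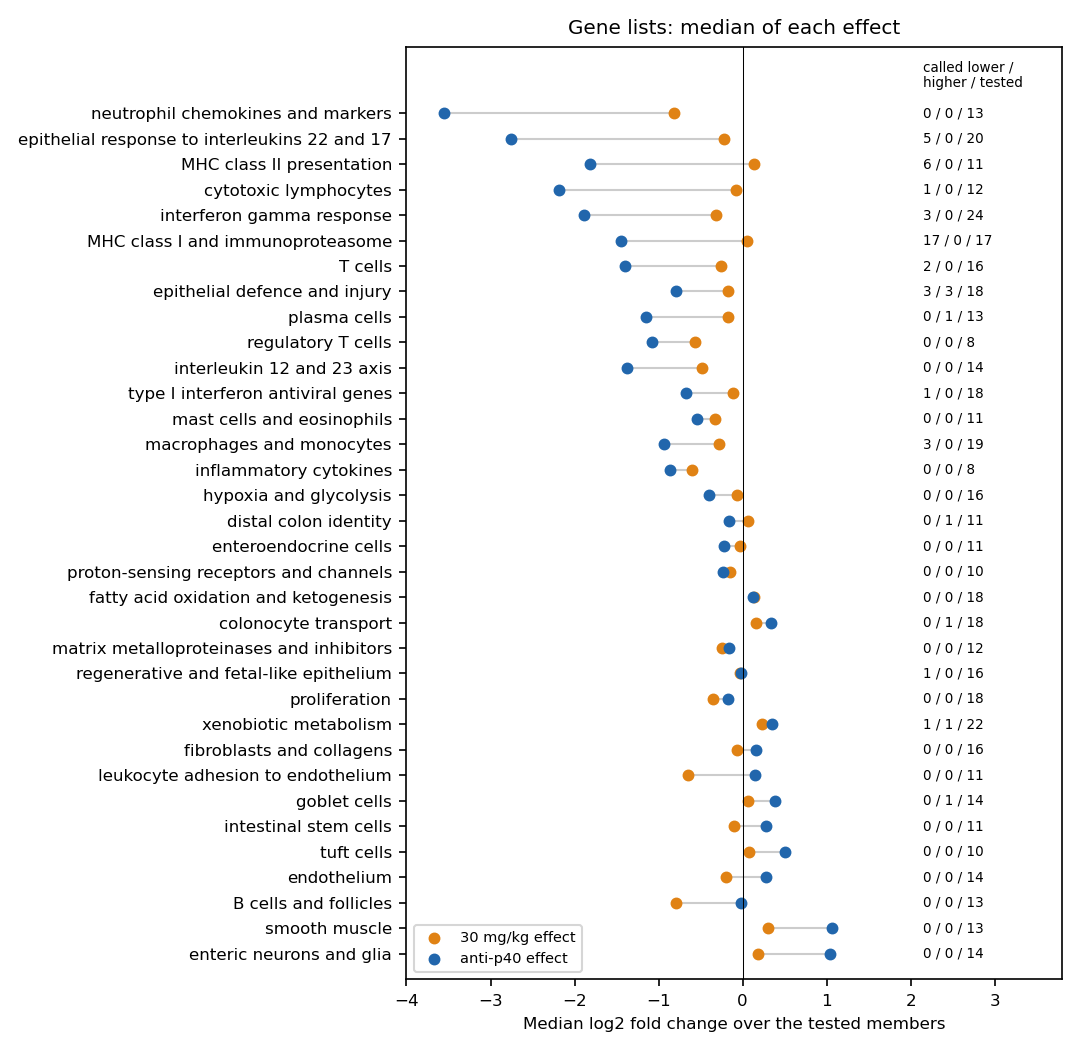
Points are the median log2 effect of anti-p40 and of 30 mg/kg over the tested members of each gene list, with the numbers called lower, called higher and tested at the right. The class I list has medians of -1.45 and 0.06 with 17 of 17 members called lower, and the neutrophil list has the larger median of -3.55 under anti-p40 with 0 called.

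The target of compound 13 did not differ in expression beyond its error. Gpr4 (ENSMUSG00000044317) was at 0.676, 1.16, 1.36, 1.55 and 0.813 CPM with anti-p40 and 1.03, 1.26, 1.54, 2.04 and 1.34 CPM in day 77 vehicle. It was at 0.299 to 2.34 CPM at 30 mg/kg and 0.487 to 1.88 CPM in vehicle. The groups overlapped in both cohorts, and the difference was -0.16 ± 0.50 (SE; edgeR adjusted p = 0.905, 95% interval -1.18 to 0.87). Of 12 genes listed for proton sensing and its signalling, 10 were tested and 0 were called by edgeR, DESeq2 or limma voom, with 1 at an unadjusted p under 0.05 in edgeR. The tested genes include Gnas, Gna13 and Adcy7, which are signalling genes and not sensors. Gpr65, a proton receptor of leukocytes, had a difference of -0.94 ± 0.39 (SE; edgeR adjusted p = 0.215), and Gpr132 one of -0.76 ± 0.41 (SE; edgeR adjusted p = 0.352). An expression level says nothing of whether a receptor was blocked.

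The genes with the smallest p for 30 mg/kg had no called difference. Myc, a transcription factor of proliferation, had an effect of -0.46 under 30 mg/kg (95% interval -0.69 to -0.24) and -0.03 under anti-p40, with a difference of 0.43 ± 0.18 (SE; edgeR adjusted p = 0.216). Kynu, an enzyme of tryptophan breakdown, and Inhbb, a subunit of activin B, had 30 mg/kg effects of -1.11 and -1.40 and differences of 0.56 and 0.54 (edgeR adjusted p = 0.545 and 0.648). Arrdc4, an arrestin-domain protein, and the protease gene Tmprss7 went the other way under 30 mg/kg, by 0.49 and 1.23, and by 0.67 and 1.47 under anti-p40. None of the 5 passed the adjusted threshold for 30 mg/kg, where the smallest adjusted p over all genes was 0.436 in edgeR.

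The authors' deposited table gave H2-K1 log2 fold changes of -1.67 for anti-p40 and 0.17 for 30 mg/kg, each against its own vehicle. For Gsdmc4 the authors' deposited table gave 4.63 and -0.35, where the latter is -0.97 in the fit used here. Some 30 mg/kg values also differed in sign. Hbb-bs was at -0.69 in the authors' deposited table, and the 7 tested erythroid genes were at 0.59 to 1.85 here. The authors used DESeq2, and which libraries entered their 30 mg/kg group was not checked. The authors' deposited table holds no test of the difference between the effects.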

How the data were processed

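Poly(A) RNA of distal colon was sequenced. Per the submitters' processing notes, reads were processed with cutadapt 3.7, STAR 2.7.8a, RSEM 1.3.3 and DESeq2 1.30.1 on mm10. The sources used here state no strand setting or annotation. The deposited tables hold RSEM estimated counts per gene, of which 17.1% (first cohort) and 20.4% (day 77) of values above 0 are not whole, and TPM, which the authors scaled per library. The authors' deposited table also holds log2 fold changes and adjusted p-values for each effect. Symbols and coordinates are from GENCODE M21 (GRCm38), which matched 50376 of 50600 identifiers.

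Counts were rounded and tested with edgeR 4.0.16 in R 4.3.3: TMM scaling, filterByExpr, robust quasi-likelihood fit of the 29 libraries in 4 groups, contrast of the 2 effects, Benjamini-Hochberg over 17544 genes, threshold 0.05. Genes that failed the filter were not tested. SE and 95% intervals are from that fit. Spread is SD over libraries. Alternatives used limma 3.58.1, also on the deposited TPM, and DESeq2 1.42.0. On simulated counts with known changes the fit recovered 57% of genes changed by 1 on the log2 scale and 84% of those changed by 2, with 4 false calls. The changes were planted in a small part of the genes, each with a mean of at least 1 CPM. Genes were drawn independently, groups were otherwise alike and no library stood apart, so these figures need not hold for the real counts.

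Genes were named by rule: the 10 protein-coding genes with the largest positive and the 10 with the largest negative called difference at a mean of at least 1 CPM in a day 77 group, the 10 with the smallest p, up to 3 called per list, a fixed set of cytokines and receptors whatever their values, and the 5 with the smallest p for 30 mg/kg. Other genes of the lists named in the text, such as Ciita, Cxcl9, Irf1, Reg3g, Lcn2, S100a8, Foxp3, Muc2 and Slc26a3, were picked after their values were seen. A few genes that the rule names are not reported here. The members and lists were chosen with earlier results of these data known. A count of 0 was taken to allow 3 counts, a limit that covers counting error only. The library with conflicting doses entered no fit. The wild-type and 10 mg/kg groups entered only the alternative that fitted all 6 groups.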

Additional observations from a re-analysis of the deposited data

Results flagged for a closer look

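In 40 of 244 sets of 1 named gene in 1 group, 1 library lay apart from the rest by a gap larger than Dixon's 95% critical value, which chance exceeds in about 1 set in 20. The sets are not independent, since genes rise and fall together within a library. Values are CPM, with the nearest other library of the group in brackets.

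Library 3 of the first-cohort vehicle was the lowest of its 10 in 17 genes. Among antigen presentation genes it had H2-K1 at 138 (275), H2-D1 at 628 (1371), H2-Q7 at 3.05 (8.16), H2-Aa at 179.7 (527), Cd74 at 678 (2444) and H2-DMa at 18.2 (46.1). Among interferon genes it had Gbp2 at 38.6 (158), Gbp8 at 5.95 (22.2), Zbp1 at 20.1 (118) and Ido1 at 0.967 (42.2). Among epithelial genes it had Noxo1 at 69.4 (98.8), Ly6a at 88.1 (494), Ces2e at 97.9 (200.7), Clca4b at 4.02 (414), Nos2 at 6.99 (188), Plet1 at 5.69 (158) and Duoxa2 at 12.5 (73.5). Library 2 of that group was the highest in Ifng at 9.58 (2.0) and Il12rb2 at 1.76 (0.557).

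Library 5 of 30 mg/kg was the lowest of its 9 in Ly6a at 372 (674), Nos2 at 24.6 (178) and Ido1 at 15.2 (64.2), and library 1 was the highest in Cd3g at 14.8 (6.3). Day 77 vehicle library 3 was the highest in H2-D1 at 2389 (1645) and Ifng at 3.72 (0.718), and the lowest in Gsdmc2 at 30.05 (173) and Gsdmc3 at 7.84 (53.6). The other vehicle libraries of that cohort gave H2-DMa at 84.8 (73.3) in library 1, Tmprss7 at 0.791 (0.396) in library 2 and Tdo2 at 0.75 (0.248) in library 5, each the highest.

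Anti-p40 library 5 was the highest in Plet1 at 35.4 (6.7), Gbp8 at 11.0 (5.07), Gzma at 1.08 (0.289) and Ifng at 0.426 (0.0711). Library 1 was the highest in Il12rb2 at 0.391 (0.116) and Il22 at 0.142 (0.0303), library 2 the lowest in Noxo1 at 49.4 (65.1), and library 4 the lowest in Inhbb at 1.16 (1.86). Library 3 was the highest in Fcgr4 at 1.79 (1.49) and the lowest in Myc at 22.3 (31.1). The difference was recomputed without the 4 libraries that gave most of these values.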

How the results depend on the processing

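No paired analysis was possible because the labels give no replicate numbers shared between the groups. The number of genes called in the difference was 164 with no expression filter, 504 with limma voom weighted by group, 722 with DESeq2 and 441 without the 2 first-cohort libraries that stood apart, beside 251. The lower calls, 191 in the main test, were 124, 361, 501 and 314 under those settings, 108 with limma on log2(TPM + 1) and 104 on log2(TPM + 0.1). The higher calls, 60 in the main test, were 143 with weights by group, 221 with DESeq2, 127 without the 2 libraries, 128 with scaling by total count, 203 on log2(TPM + 1) and 164 on log2(TPM + 0.1). Anti-p40 alone gave 2793 with weights by group, 2745 with its 2 groups only and 1003 without the 4 libraries that stood apart, beside 1536. The 30 mg/kg effect gave 2 in DESeq2. Settings that leave out named libraries were added after seeing the data. Leaving out 1 library at a time gave 103 to 515 called differences, 80 to 394 lower, 23 to 147 higher, 677 to 1784 for anti-p40 and 0 to 0 for 30 mg/kg. Fits with 1 library fewer have fewer samples, and beyond that the cause of these changes was not tested.

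Of 1843 values for the 45 called named genes over 41 settings, 1602 kept direction and threshold, 241 kept direction and missed the threshold, and 0 changed direction. In 20 genes every setting passed, among them H2-K1, H2-D1, H2-Q7, H2-Aa, Cd74, H2-DMa, Noxo1, Muc1, Ly6a, Ly6c2, Cd3g, Gsdmc4, Car1 and Cdk6. Leaving out anti-p40 library 2 lost 19 of the 45 calls, day 77 vehicle library 3 lost 17, and anti-p40 library 1 lost 14. With 5 libraries in each day 77 group, the median SE of a difference was 0.27 on the log2 scale, and genes near the count floor, such as Il12b and Ifng, had SE of 0.84 and 1.39.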

Other observations

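Most of the called genes were in none of the lists: 148 of the 191 lower and 53 of the 60 higher genes. The genes below were picked from them, or beside them, after their values were seen, and they support nothing by themselves.

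Genes of enzymes that make reactive oxygen at the epithelial surface recur among the lower ones. Nox1, the catalytic subunit of the colonic NADPH oxidase, had a log2 difference of -1.77 (edgeR adjusted p = 0.0438), beside Noxo1, its organizer, at -1.20. Duoxa1, a maturation factor of dual oxidases, had one of -2.11 (edgeR adjusted p = 0.0256), beside Duox2 at -1.999 and Duoxa2 at -2.74. Duoxa1 and Duoxa2 overlap in the annotation, so reads may be shared. Their 30 mg/kg effects lay close to 0, at -0.26 for Nox1 and 0.00 for Duoxa1.

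Secreted phospholipase genes were also lower, Pla2g2a at -4.16 (edgeR adjusted p = 0.00762) and its overlapping neighbour Pla2g5 at -2.55 (edgeR adjusted p = 0.00626). Pla2g2a is annotated as a polymorphic pseudogene, being intact in some mouse strains and broken in others. Il18bp, the secreted inhibitor of interleukin 18, had a difference of -2.64 (edgeR adjusted p = 0.00765), and the caspase gene Casp4 had one of -1.38 (edgeR adjusted p = 0.0162). Casp4 encodes the sensor of intracellular lipopolysaccharide that cleaves the product of Gsdmd.

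Outside the class I list, H2-Q5, H2-T10 and H2-Q10 were called lower too, at -2.61, -1.15 and -1.20 (edgeR adjusted p = 0.00592, 0.0197 and 0.0494), with the read-sharing limits of that family. The pseudogene Gsdmcl2, which lies within the gasdermin C cluster, had a difference of 6.70 (edgeR adjusted p = 0.00948). Histone genes appear among the higher ones, with Hist2h4 at 2.57 and Hist1h4n at 1.92 (edgeR adjusted p = 0.00888 and 0.0472). Histone messages mostly lack a poly(A) tail, and these libraries were selected by poly(A).

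One called gene had a whole group at 0. Gm10163, a processed pseudogene, had 0 CPM in all 5 day 77 vehicle libraries, 0 to 77.1 CPM with anti-p40 (median 40.2), 3.76 to 139.9 CPM at 30 mg/kg and 0.178 to 163 CPM in first-cohort vehicle. Its fitted difference depends on the prior count and is no bound.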
